A study of Mus musculus with 6 samples.

Results

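Fatty acid oxidation and ketogenesis in the insulin-resistant (IR) mouse liver were followed through 37 genes, chosen by gene name from the 54532 genes of a read count table. They cover the carnitine shuttle, mitochondrial and peroxisomal β-oxidation, electron transfer from the acyl-CoA dehydrogenases, the acyl-CoA thioesterases, the ketone body enzymes and Pdk4. All 37 passed the filter on low counts, which left 13377 genes to test, and their counts ran from 100 to 46567 per library.

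The animals were male C57BL/6J mice fed a high-fat diet (HFD) for 6 weeks from 8 weeks of age, a diet-induced model of insulin resistance with no gene altered. All were fasted for 16 h. Then 3 received insulin by intraperitoneal injection at 0.75 units/kg body weight (IR insulin) and 3 received bovine serum albumin, the carrier of the insulin (IR vehicle), and livers were taken 6 h later. Each library came from 1 mouse, and the comparison asks which hepatic transcripts still respond to insulin once resistance has developed.

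Fasting turns the liver towards burning fat. Fatty acids released by adipose tissue are coupled to carnitine to enter mitochondria, are cut down to acetyl-CoA by repeated oxidation, hydration, oxidation and thiolysis, and much of the acetyl-CoA is exported as ketone bodies. Very long and branched chains are shortened first in peroxisomes. The nuclear receptor PPARα switches on many of these genes in fasting, and insulin is known to oppose this programme.

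Library totals ran from 18449986 to 21827619 counts, and the 37 genes took 1.16 to 1.46% of them. Levels are given as CPM, read counts normalised for library size with TMM factors. Positive log2 fold changes mean a higher level with insulin. Strand use in counting is not given in the sources used here, and 16 of the 37 genes share exon sequence with another annotated gene, so their counts carry that uncertainty. The 8 hepatocyte markers summed to 67908 to 175220 CPM, whereas the 5 muscle markers reached at most 0.0954 CPM and Acta1, Tnnt3 and Mb were at 0. Cpt1b, the muscle form of Cpt1a, stayed at or below 0.138 CPM. Vehicle replicate 2 stood apart, with 16470 genes detected against 18389 to 18874 in the other libraries. The erythroid markers were also highest there, at 1587 CPM against 312 to 626 CPM elsewhere, and their part in the results below was not tested. Values without this library, and with an offset that removes each library's trend over GC content, are therefore given where they matter.

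No gene of fatty acid oxidation or ketogenesis passed an adjusted p of 0.05 in the comparison of insulin with vehicle (quasi-likelihood F test of edgeR, Benjamini-Hochberg over 13377 genes), the smallest adjusted p being 0.852. Among all genes tested the share was 0% as well. No member reached an unadjusted p under 0.05 in edgeR or met the criteria of the study (unadjusted p under 0.05 and a log2 fold change of 0.35 or more in size) in edgeR or DESeq2. The study criteria were met by 383 of all genes (2.86%). In whole liver RNA, fewer cells of a type and less RNA per cell cannot be told apart.

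The log2 fold changes of the 37 genes ran from −0.67 for Pdk4 to 0.51 for Acaa1b. Their median was −0.060, against −0.017 over all genes tested. With insulin 13 members were higher and 24 lower, whereas 48.6% of all genes were higher. That split was 18 against 19 under upper-quartile scaling and 9 against 28 with the GC offset. The median over all genes tested moved too, to 0.028 under upper-quartile scaling and to −0.061 with the GC offset. The SE ran from 0.21 to 0.64, and the 95% interval lay within 1 log2 unit of 0 on both sides for 28 of 37 members. The interval of the median member spanned a 1.52-fold difference either way.

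The 2 groups overlapped for 34 of 37 members. Acadvl was higher in every insulin library than in any vehicle library, as were 6.25% of all genes. Echs1 and Acaa2 were lower in every insulin library, as were 6.04% of all genes.

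**Figure D1:**
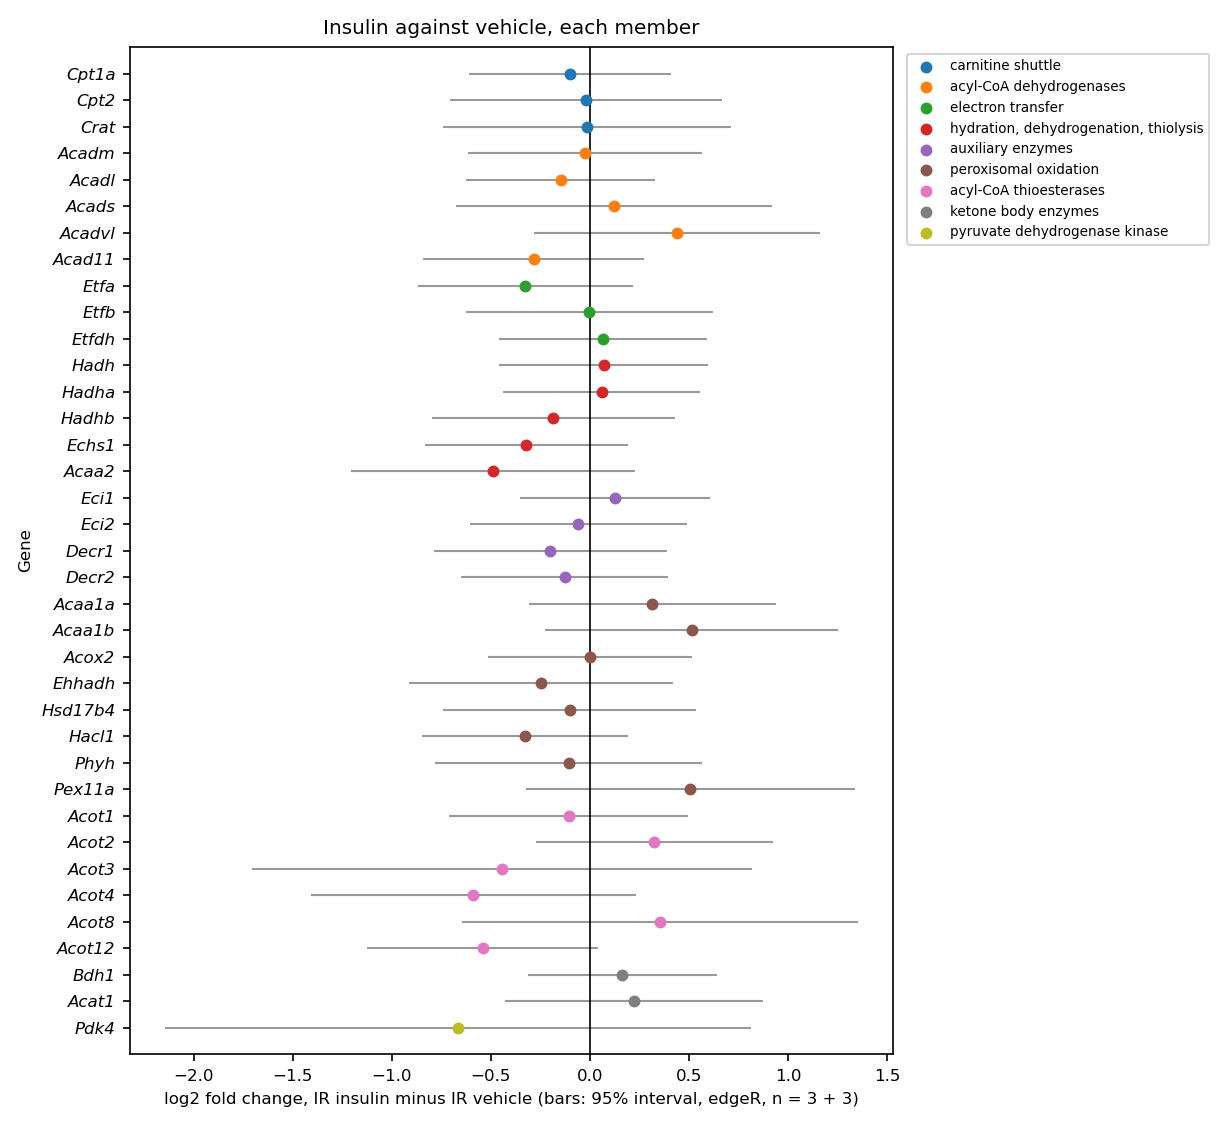
Log2 fold change of each of the 37 genes (points, coloured by role; vertical axis, gene) with its 95% interval from edgeR (bars); the horizontal axis is IR insulin minus IR vehicle on the log2 scale, n = 3 mice per group. Every interval crosses 0, and the points run from −0.67 for Pdk4 to 0.51 for Acaa1b.

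The carnitine shuttle moves acyl groups across the mitochondrial membranes. Cpt1a encodes the outer membrane carnitine palmitoyltransferase that limits the rate of entry, and it lies at chr19:3322334-3385733 (plus strand, GRCm38). It was at 554, 642 and 603 CPM with vehicle (replicates 1, 2 and 3, in which order all values are given) and at 592, 533 and 554 CPM with insulin. These values overlapped, and the highest was 1.16 times the lowest with vehicle and 1.11 times with insulin. The log2 fold change was −0.10 ± 0.22 (SE; 95% interval −0.61 to 0.41; unadjusted p 0.659 in edgeR). For Cpt2, the inner membrane partner, vehicle replicate 2 was at 155 CPM and the other 5 libraries at 245 to 305 CPM. Crat, the carnitine acetyltransferase, was likewise lowest in vehicle replicate 2, at 53.3 CPM, and highest in vehicle replicate 3, at 124 CPM. Their log2 fold changes were −0.019 and −0.016 and turned positive under upper-quartile scaling.

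Acyl-CoA dehydrogenases catalyse the first oxidation and are specialised by chain length. Acadvl, for very long chains, was at 263, 124 and 250 CPM with vehicle and at 291, 276 and 297 CPM with insulin. The groups did not overlap, but vehicle replicates 1 and 3 were close to the insulin values and vehicle replicate 2 was far below them. Its log2 fold change was 0.44 ± 0.31 (SE; unadjusted p 0.198), and 0.17 without vehicle replicate 2. Acadvl shares exon sequence with Dvl2 on the opposite strand.

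Acadm, for medium chains and the most abundant of this group, was at 632, 735 and 472 CPM with vehicle and at 607, 644 and 556 CPM with insulin. The insulin values lay inside the vehicle range (log2 fold change −0.026, 0.026 under upper-quartile scaling). Acads, for short chains, was at 87.6 CPM in vehicle replicate 2 and at 175 to 222 CPM in the other libraries. Its log2 fold change of 0.12 became −0.34 with the GC offset. Acadl, for long chains, stayed between 217 and 269 CPM in all 6 libraries (log2 fold change −0.15). Acad11, a further family member, was highest in vehicle replicate 2 at 541 CPM and ran from 339 to 397 CPM elsewhere (−0.29).

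Electrons leave these enzymes through the electron transfer flavoprotein, whose subunits are encoded by Etfa and Etfb, and its ubiquinone oxidoreductase, Etfdh. Etfa was at 309, 444 and 371 CPM with vehicle and at 307, 315 and 275 CPM with insulin. Only insulin replicate 2 exceeded the lowest vehicle library, and the log2 fold change was −0.33 ± 0.24 (SE; unadjusted p 0.204). The other subunit did not share this pattern of CPM values. Etfb was highest in vehicle replicate 3, at 65.96 CPM against 37.5 to 52.3 CPM elsewhere. Its log2 fold change was −0.0029, and 0.036 under upper-quartile scaling. With the GC offset it was −0.45 for Etfb and −0.19 for Etfa. Of the 50-base stretches of Etfb, 76.5% also occur in Gm45233, a gene model that was at 0 in all libraries. Gm45233 overlaps the exons of Etfb on the same strand, and reads lying in both may be missing from the Etfb count. Etfdh ran from 278 to 352 CPM over both groups (0.066).

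The later steps of the mitochondrial spiral are hydration, a second oxidation and thiolysis. Acaa2, the mitochondrial ketoacyl-CoA thiolase, was at 1074, 2046 and 1192 CPM with vehicle and at 1031, 1073 and 970 CPM with insulin. Vehicle replicate 2 stood far above all others, and vehicle replicate 1 hardly differed from insulin replicate 2. The log2 fold change was −0.49 ± 0.31 (SE; 95% interval −1.21 to 0.23; unadjusted p 0.155). It was −0.14 without vehicle replicate 2, but −0.66 without vehicle replicate 1 and −0.78 with the GC offset. Echs1, the short-chain enoyl-CoA hydratase (chr7:140105710-140116476, minus strand), was at 263, 291 and 320 CPM with vehicle and at 241, 255 and 203 CPM with insulin. Every insulin value was below every vehicle value, by little between vehicle replicate 1 and insulin replicate 2. Its log2 fold change was −0.32 ± 0.22 (SE; unadjusted p 0.184), and between −0.39 and −0.22 with any 1 library left out. Echs1 shares exon sequence with Paox on the opposite strand.

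Hadha and Hadhb encode the α and β subunits of the trifunctional protein and stand head to head on chromosome 5. Hadha was among the steadiest members, at 462 to 527 CPM in all libraries (log2 fold change 0.059). Hadhb was at 438 CPM in vehicle replicate 2 and at 255 to 307 CPM elsewhere (−0.19). Of the Hadhb coding sequence, 90.4% of 50-base stretches also occur in the pseudogenes Gm13910 and Gm9108. Summed with both, Hadhb was at 388, 551 and 321 CPM with vehicle and at 383, 377 and 343 CPM with insulin, the same pattern. Hadh, the dehydrogenase for shorter chains, ran from 285 to 382 CPM (0.068). The signs of Hadh, Hadha and Hadhb were all reversed by the GC offset.

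Unsaturated fatty acids need auxiliary enzymes that move or reduce double bonds. Decr1, the mitochondrial dienoyl-CoA reductase, was at 292, 425 and 266 CPM with vehicle and at 304, 284 and 267 CPM with insulin. Vehicle replicate 2 was again the high library, and the log2 fold change was −0.20 ± 0.26 (SE; unadjusted p 0.456). Eci2, an enoyl-CoA isomerase, was at 336, 344 and 293 CPM with vehicle and at 341, 344 and 248 CPM with insulin (−0.060). Eci1, the mitochondrial isomerase, ran from 177 to 219 CPM (0.13) and Decr2, the peroxisomal reductase, from 192 to 271 CPM (−0.13). The GC offset turned Eci1 to −0.18 and left Eci2 at 0.00029.

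**Figure D2:**
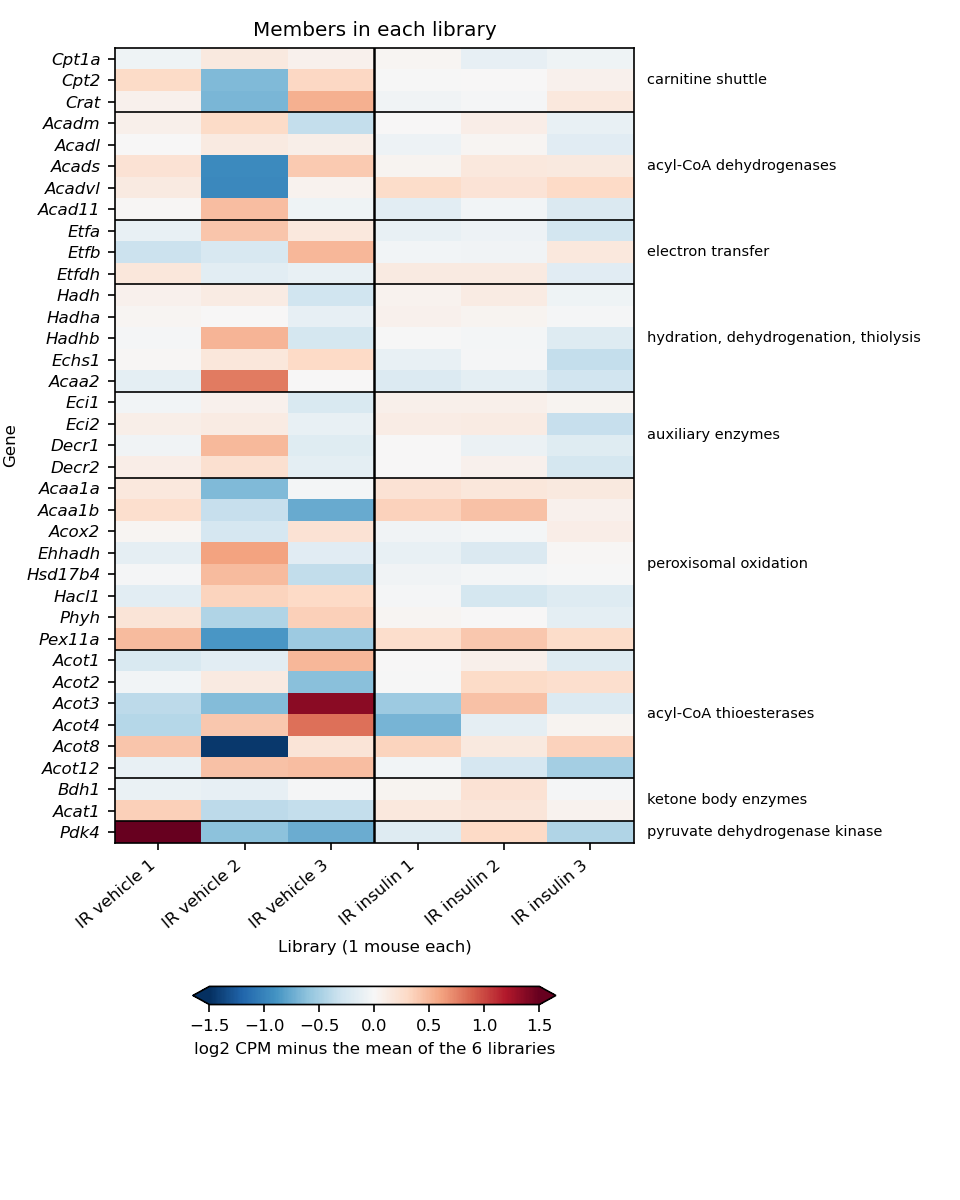
Log2 CPM of each of the 37 genes (vertical axis, grouped by role) in each of the 6 libraries (horizontal axis), minus the gene's mean over the libraries; red is above and blue below that mean, and the colour scale ends at 1.5 on both sides. The insulin columns are pale, with a median SD of 0.106 on the log2 scale, whereas the vehicle columns hold most of the strong colours, with a median SD of 0.398.

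Peroxisomes hold their own oxidation pathway. The final thiolysis there is carried out by Acaa1a and Acaa1b, genes on chromosome 9 whose coding sequences, of 1272 bases each, are 96.5% identical. Of the coding sequence of each, 37.9% of 50-base stretches also occur in the other. The first 60 coding bases (GENCODE M21, GRCm38) are shown because they make plain how little separates the genes for short reads, with the position that differs in capitals. Acaa1a lies here at chr9:119341515-119341574 on the plus strand and Acaa1b at chr9:119156935-119156994 on the minus strand.
Acaa1a: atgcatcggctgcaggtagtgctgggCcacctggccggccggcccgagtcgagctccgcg
Acaa1b: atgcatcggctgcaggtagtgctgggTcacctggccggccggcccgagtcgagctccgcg

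Acaa1b was at 1450, 956 and 720 CPM with vehicle and at 1547, 1644 and 1269 CPM with insulin. Vehicle replicate 1 lay among the insulin libraries and the other vehicle libraries lay below them. The log2 fold change was 0.51 ± 0.32 (SE; 95% interval −0.23 to 1.25; unadjusted p 0.147), the highest of the 37, but −0.13 with the GC offset. Acaa1a was at 452, 256 and 394 CPM with vehicle and at 470, 455 and 446 CPM with insulin. Only vehicle replicate 1 overlapped the insulin group (log2 fold change 0.31 ± 0.27, SE; unadjusted p 0.278). For Acaa1a this value was 0.12 without vehicle replicate 2 and 0.015 with the GC offset. Because reads can be assigned to either gene, their sum is also given, although reads matching both may have been left out of both counts. The sum was 1901, 1212 and 1114 CPM with vehicle and came to 2016, 2099 and 1715 CPM with insulin. This is 1409 ± 429 against 1944 ± 202 CPM (mean ± SD, n = 3), and the groups overlapped through vehicle replicate 1. The sum was not fitted with the GC offset. The ratio of Acaa1b to Acaa1a was 1.83 in vehicle replicate 3 and 2.85 to 3.74 in the other 5 libraries.

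Pex11a, a membrane protein that promotes peroxisome division and a PPARα target (chr7:79735957-79743131, minus strand), was at 297, 116 and 146 CPM with vehicle and at 255, 281 and 257 CPM with insulin. Vehicle replicate 1 exceeded every insulin library, while vehicle replicates 2 and 3 were far below them. Its log2 fold change was 0.51 ± 0.36 (SE; 95% interval −0.32 to 1.34; unadjusted p 0.198). It was 0.26 without vehicle replicate 2 and 0.46 with the GC offset.

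The remaining peroxisomal genes showed no such pattern. Phyh, the phytanoyl-CoA hydroxylase that starts α-oxidation of branched chains, was at 1981, 1261 and 2221 CPM with vehicle and at 1770, 1737 and 1566 CPM with insulin. The insulin values lay inside the vehicle range (log2 fold change −0.11). Hacl1, the lyase further down the same pathway, was at 32.8, 46.2 and 45.2 CPM with vehicle and at 36.3, 30.5 and 32.2 CPM with insulin. Insulin replicate 1 alone exceeded the lowest vehicle library, and the log2 fold change was −0.33 ± 0.23 (SE; unadjusted p 0.185). Of the 50-base stretches of Hacl1, 85.1% also occur in Gm49387, a gene model that was at 0 in all libraries. Gm49387 overlaps the exons of Hacl1 on the same strand. How reads lying in both were counted is not given, so Hacl1 may be undercounted.

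Ehhadh, the L-bifunctional enzyme, stood at 1045 CPM in vehicle replicate 2 and at 591 to 695 CPM elsewhere (log2 fold change −0.25, and 0.054 without that library). Hsd17b4, the D-bifunctional enzyme, stood at 827 CPM in the same library and at 462 to 589 CPM elsewhere (−0.10, and 0.16 without it). Acox2, the oxidase for branched chains and bile acid intermediates, ran from 159 to 221 CPM. Its log2 fold change was −0.0024, and 0.037 under upper-quartile scaling.

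Acyl-CoA thioesterases split acyl-CoA into free fatty acid and CoA. Of the role groups with 3 or more genes this family had the lowest median log2 fold change, −0.28, with 2 members higher and 4 lower. None of the 6 changed sign under RLE or upper-quartile scaling or the GC offset. With 1 library left out, however, Acot1, Acot3 and Acot8 did. Without vehicle replicate 3, Acot1 (0.16), Acot2 (0.13), Acot3 (0.48) and Acot8 (0.51) were above 0 and Acot4 (−0.28) and Acot12 (−0.44) below. The direction of the family median thus depended on that library. Acot1 to Acot4 also share sequence and are not fully separate measurements. Acot12, a cytosolic acetyl-CoA hydrolase (chr13:91741512-91786148, plus strand), was at 121, 177 and 181 CPM with vehicle and at 127, 110 and 91.9 CPM with insulin. Vehicle replicate 1 fell within the insulin range and the other vehicle libraries lay above it. The log2 fold change was −0.54 ± 0.25 (SE; 95% interval −1.13 to 0.043). Its unadjusted p of 0.0650 was the smallest of the 37, with an adjusted p of 0.852 (edgeR). Acot12 shares exon sequence with 4833422C13Rik on the opposite strand. Over the 13 alternatives the unadjusted p ran from 0.0260 to 0.219 and the log2 fold change from −0.70 to −0.38.

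Acot1, Acot2, Acot3 and Acot4 form a cluster on chromosome 12, all on the plus strand between 83987861 and 84060402. Their products act in the cytosol (Acot1), mitochondria (Acot2) and peroxisomes (Acot3 and Acot4). Acot4 was at 48.2, 86.3 and 116 CPM with vehicle and at 40.1, 59.2 and 66.9 CPM with insulin. The groups overlapped through vehicle replicate 1, and the log2 fold change was −0.59 ± 0.35 (SE; unadjusted p 0.135). Acot3 was at 22.7, 19.0 and 76.9 CPM with vehicle and at 20.4, 40.8 and 25.97 CPM with insulin. A single library, vehicle replicate 3, set its direction: the log2 fold change was −0.44 ± 0.55 (SE) with it and 0.48 without it.

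Acot1 was at 97.3, 102 and 160 CPM with vehicle and at 114, 120 and 99.96 CPM with insulin (log2 fold change −0.11, and 0.16 without vehicle replicate 3). Acot2 was at 26.8, 30.3 and 17.7 CPM with vehicle and at 27.3, 33.5 and 32.8 CPM with insulin (0.32 ± 0.26, SE; unadjusted p 0.246), but its log2 fold change was 0.13 without vehicle replicate 3 and 0.0016 with the GC offset. Vehicle replicate 3 was thus the highest library for Acot1, Acot3 and Acot4 and the lowest for Acot2. The coding sequences of Acot1 and Acot2 are 85.7% identical and those of Acot1 and Acot3 82.1%, so reads may have been divided between them. Summed over the 4 genes, the level was 195, 238 and 370 CPM with vehicle and came to 202, 253 and 226 CPM with insulin, and the groups overlapped. Acot8, a peroxisomal thioesterase outside the cluster, was at 6.14 CPM in vehicle replicate 2 and at 18.7 to 22.6 CPM elsewhere. Its log2 fold change was 0.35 ± 0.43 (SE), and −0.028 without that library.

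The ketone body enzymes were Bdh1, which makes β-hydroxybutyrate from acetoacetate, and Acat1, the mitochondrial acetoacetyl-CoA thiolase. Bdh1 was at 195, 191 and 206 CPM with vehicle and at 214, 243 and 206 CPM with insulin. It varied little, and the groups met at vehicle replicate 3 and insulin replicate 3. The log2 fold change was 0.16 ± 0.21 (SE; 95% interval −0.31 to 0.64; unadjusted p 0.453), and −0.012 with the GC offset. Acat1 was at 807, 479 and 493 CPM with vehicle and at 704, 718 and 655 CPM with insulin. As for Pex11a, vehicle replicate 1 lay above the insulin libraries and the other vehicle libraries below (0.22 ± 0.28, SE; unadjusted p 0.450).

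Pdk4 encodes a pyruvate dehydrogenase kinase that spares glucose when fat is oxidised, and it is a gene that insulin is known to repress. It was at 66.7, 13.3 and 12.2 CPM with vehicle and at 17.9, 25.3 and 14.99 CPM with insulin. One vehicle mouse was several times above all others, and vehicle replicates 2 and 3 were below every insulin library. The log2 fold change of −0.67 ± 0.64 (SE; 95% interval −2.15 to 0.81; unadjusted p 0.329) became 0.61 without vehicle replicate 1.

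**Figure D3:**
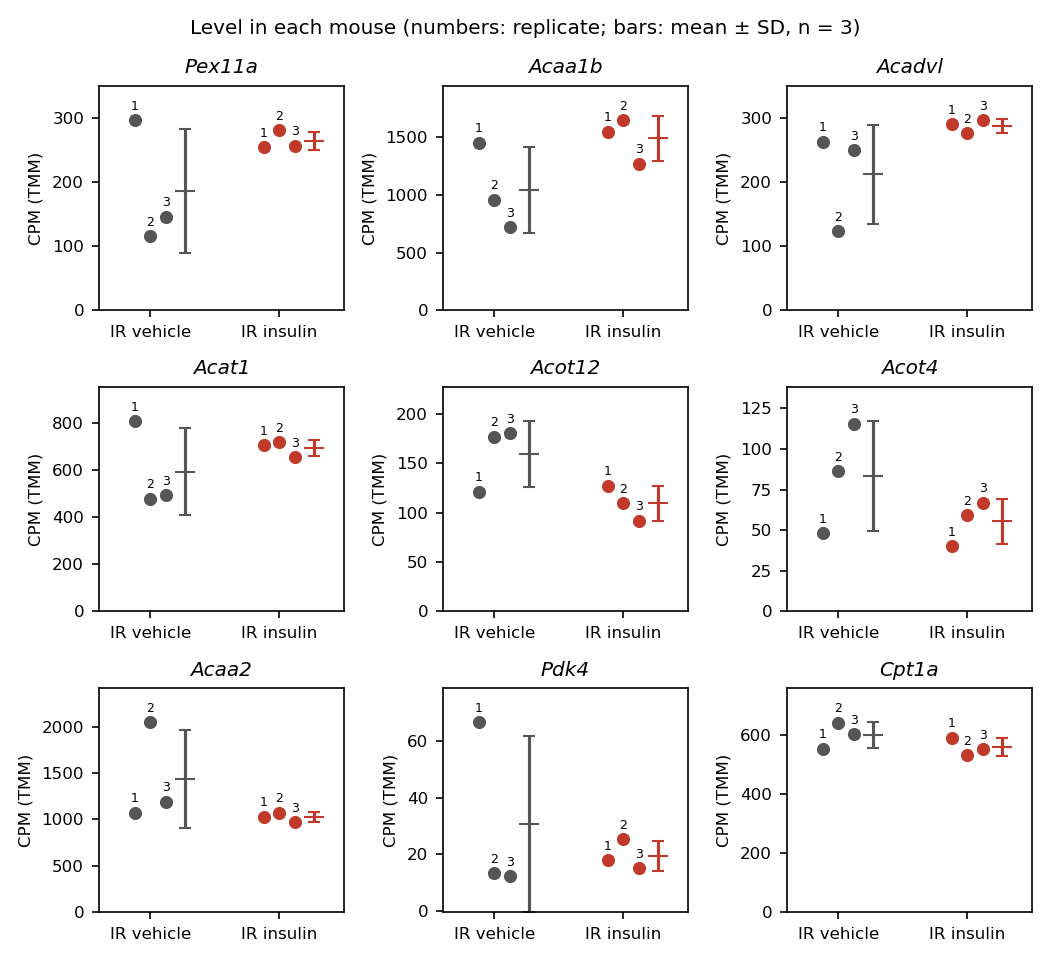
CPM of 9 of the genes in each mouse (points numbered by replicate; grey, IR vehicle; red, IR insulin), with the mean ± SD of 3 mice beside them; vertical axes are linear and include 0. Vehicle replicate 1 sits with or beyond the insulin mice for Pex11a, Acaa1b, Acat1, Acot12 and Acot4, vehicle replicate 2 is the outlying point for Acadvl and Acaa2, and the Pdk4 value of 66.7 CPM belongs to 1 vehicle mouse.

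The vehicle libraries thus differed among themselves more than the insulin libraries did. With 1 library per mouse, differences between animals and between libraries cannot be told apart. The median SD of log2 CPM was 0.398 over the members with vehicle and 0.106 with insulin, and over all genes tested it was 0.518 and 0.182. The vehicle SD was the larger for 32 of 37 members (86.5%) and for 85.2% of all genes, so the genes of fatty acid oxidation shared a feature of the whole series. The insulin values spanned less than 1.3-fold for 32 members, and the vehicle values for 8. Across the 37 genes, log2 CPM of vehicle replicate 1 correlated with the 3 insulin libraries at Pearson's r of 0.969 to 0.982, the insulin libraries with each other at 0.990 to 0.992, and the vehicle libraries with each other at 0.911 to 0.930. Genes are not independent replicates, and these values describe the libraries only.

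Whether members met the study criteria depended on vehicle replicate 1. Without it, 4 of 37 members (10.8%) met them, and so did 1349 of 13750 genes (9.81%), a like share. The 4 were Pex11a (log2 fold change 1.02, unadjusted p 0.00528), Acaa1b (0.83, p 0.0239), Acot12 (−0.70, p 0.0260) and Acot4 (−0.86, p 0.0274). Their adjusted p was 0.473 to 0.506 in edgeR, with 2 mice left in the vehicle group. No member met the criteria under any of the other 12 alternatives.

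**Figure D4:**
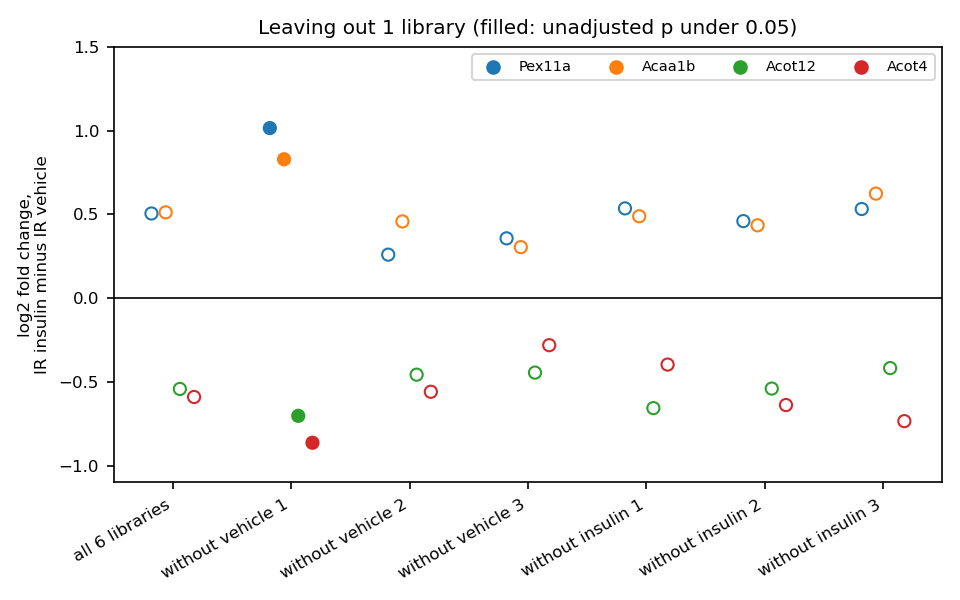
Log2 fold change, IR insulin minus IR vehicle (vertical axis), of the 4 genes that met the study criteria in any alternative, with all 6 libraries and with each library left out in turn (horizontal axis); filled points have an unadjusted p under 0.05 in edgeR. Filled points occur only without vehicle replicate 1, where Pex11a is at 1.02 and Acot4 at −0.86.

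Vehicle replicate 2 departed from the other libraries in both directions. Taking a gene's deviation as its log2 CPM there minus the median of the other 5 libraries, 9 members lay above 0.5 (Acad11, Etfa, Hadhb, Acaa2, Decr1, Ehhadh, Hsd17b4, Acot4 and Acot12) and 9 below −0.5 (Cpt2, Crat, Acads, Acadvl, Acaa1a, Acaa1b, Pex11a, Acot8 and Acat1). The first 9 had a median transcript GC content of 45.04% and the second 9 of 53.9%. Over the 37 genes, which share 1 library, the deviation had a Spearman correlation of −0.52 with GC content, and over 13367 genes one of −0.67. Acaa2 ran against it, with 52.8% GC and the highest deviation of the members, and Acat1 did too, with 45.5% GC and a deviation of −0.56. The acyl-CoA dehydrogenases, the peroxisomal genes and the thioesterases each had members on both sides.

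**Figure D5:**
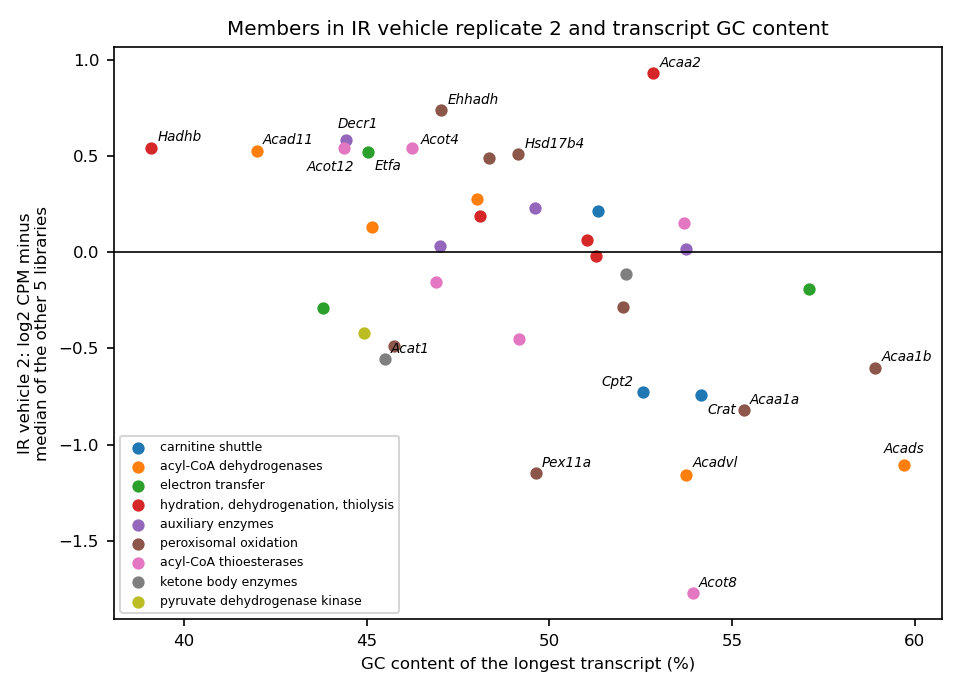
Difference of vehicle replicate 2 from the other 5 libraries' median on the log2 scale (vertical axis) against transcript GC content in percent (horizontal axis; longest transcript of each gene) for the 37 genes, coloured by role; genes beyond 0.5 on either side are named. Points fall from upper left to lower right (Spearman −0.52), with Acaa2 at 52.8% GC far above the trend.

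Vehicle replicate 3 departed in other genes. Crat, Etfb, Acot1, Acot3, Acot4 and Acot12 were above 0.5 there, and Acaa1b, Pex11a, Acot2, Acat1 and Pdk4 below −0.5. Vehicle replicates 2 and 3 were thus low together for Acaa1b, Pex11a and Acat1 and high together for Acot4 and Acot12. In vehicle replicate 1 only Pdk4 passed 0.5, with a deviation of 2.15. The summed periportal markers were 5729 CPM in vehicle replicate 3 and 1274 to 2695 CPM elsewhere. Their part in these deviations was not tested.

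Scaled by annotated exon length, the members covered a wide range of levels. Phyh (928 CPM per kilobase), Acaa2 (812) and Acaa1b (644) were highest as means of the 6 libraries, followed by Ehhadh (235), and then by Etfa (184), Hsd17b4 (177) and Acat1 (171), whose order was not tested. The rate-limiting Cpt1a (75.9) stood near the middle, next to Acads (77.6) and Pex11a (70.8), which lay within its spread between mice. Acot3 (9.98), Acot8 (9.13), Hacl1 (7.52) and Pdk4 (7.14) were lowest on this scale. Acot3 and Hacl1 each overlap, in exons on the same strand, a gene model without counts (Gm49366 and Gm49387). They may be undercounted, and their rank is uncertain.

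Many PPARα targets carry a direct repeat of the half-site AGGTCA with a base between. Windows from 250 bases before to 50 after the start (RefSeq, GRCm38.p6) were found for 32 of the 37 genes, and both strands were searched for the repeat with at most 2 mismatches in its 12 letters. It was present in 5 of 35 member windows (14.3%) and in 1268 of all 32851 windows (3.86%). The 5 matches are shown in the direction of the repeat to allow comparison, with letters that match the half-sites in capitals and the mismatches and the base between in lower case.
Etfa (chr9:55512308-55512320, plus strand): AGGgCAaAGGTaA
Echs1 (chr7:140116492-140116504, minus strand): AGGTCAcgGGTCc
Acox2 (chr14:8258818-8258830, minus strand): AGGaCAgAGGTgA
Acot4 (chr12:84038366-84038378, minus strand): cGGcCAaAGGTCA
Acot12 (chr13:91741411-91741423, minus strand): AGGTgAgAGGTCA

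The closest match, with 1 mismatch, began 110 bases before the start of Acot12, the member with the smallest p. The 250 bases upstream of Acot12 (chr13:91741271-91741520, plus strand) are shown for its context, with the matched stretch in capitals, where it reads on the opposite strand. This gene was picked for display after its values were seen.
Acot12 promoter: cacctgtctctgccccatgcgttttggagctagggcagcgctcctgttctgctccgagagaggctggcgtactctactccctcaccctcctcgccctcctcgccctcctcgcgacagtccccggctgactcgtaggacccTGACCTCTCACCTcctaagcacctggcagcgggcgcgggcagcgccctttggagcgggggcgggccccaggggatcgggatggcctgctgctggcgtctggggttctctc

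The genes with a match had log2 fold changes of −0.33 (Etfa), −0.32 (Echs1), −0.0024 (Acox2), −0.59 (Acot4) and −0.54 (Acot12). All 5 were below 0, as were 24 of the 37 members, and none passed the test. The log2 fold change of Acox2 turned positive in 7 of 13 alternatives. Whether the matches bear on these values was not tested. The windows of Pex11a and Acaa1b held no match, but sequence outside the windows was not searched. A match describes letters only and does not show binding.

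Other genes of the same processes were read from 2 lists. Of 27 further genes of fatty acid oxidation and ketogenesis, 8 were higher and 19 lower with insulin, with a median log2 fold change of −0.10. Of 16 regulators and other PPARα targets, 10 were higher and 6 lower, with a median of 0.088. Of these 43 genes Nudt7 and Fgf21 met the study criteria, beside 2.86% of all genes tested, and none had an adjusted p below 0.852 (edgeR).

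Nudt7, a peroxisomal enzyme that degrades CoA, was at 530, 762 and 448 CPM with vehicle and at 447, 325 and 284 CPM with insulin. Every insulin value was below every vehicle value, as for 6.04% of all genes, and the log2 fold change was −0.72 ± 0.30 (SE; unadjusted p 0.0441, under 0.05 in 6 of 13 alternatives). Fgf21, the fasting hormone made by liver under PPARα, was at 6.66, 2.70 and 5.87 CPM with vehicle and at 9.91, 8.49 and 13.1 CPM with insulin. All insulin libraries were above all vehicle libraries, as for 6.25% of all genes (1.04 ± 0.38, SE; unadjusted p 0.0247), and the unadjusted p stayed under 0.05 in 12 of 13 alternatives. The next smallest p values were those of Abcd3, a peroxisomal acyl-CoA importer (log2 fold change −0.68, unadjusted p 0.0788), Fabp1, the liver fatty acid binding protein (0.55, p 0.0839), Pex7, a peroxisomal import receptor (−0.45, p 0.0860), and Sirt1, a deacetylase (−0.57, p 0.132). Without vehicle replicate 2 the log2 fold change was −0.47 for Nudt7 (unadjusted p 0.0869), −0.24 for Abcd3 and −0.19 for Sirt1. For Fgf21 it was 0.75 without that library (unadjusted p 0.0167 in edgeR) and 0.82 with the GC offset.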

How the data were processed

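Liver RNA of 6 mice was sequenced, 3 IR vehicle and 3 IR insulin; groups came from the sample titles. The deposited table held raw read counts per gene, which the authors had not normalized. Per the labels and the methods of the study, RNA was extracted with Trizol, libraries were made with the NEBNext Ultra kit and read on an Illumina HiSeq, and reads were aligned with Bowtie2 2.2.3 to mm10. The counting program, its annotation and use of strand are not given in the sources used here. Bowtie2 does not split reads at introns, so those crossing exon junctions can be missed and genes of many short exons undercounted.

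Counts were tested with edgeR 4.0.16 (R 4.3.3; glmQLFit, glmQLFTest, TMM, filterByExpr with a minimum count of 10 and total of 15, no covariate), two-sided, with Benjamini-Hochberg adjustment over 13377 genes. SE was derived from the F statistic, so it reflects variance moderated over genes and common to both groups, not a gene's own spread alone. The fit was run on simulated counts with the same dispersion for all genes in both groups and no GC trend. These settings differ from the data, so the run checks the code only. The biological coefficient of variation was 0.357. An exact permutation test of 3 against 3 cannot go below 0.1 and was not used. DESeq2 1.42.0, RLE and upper-quartile scaling, no filter, the replicate number as a block, a GC offset (loess, span 0.5), both together, and leaving out each library were alternatives. Replicate numbers did not pair libraries.

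Positions, lengths and GC content came from GENCODE M21 (99.9% of identifiers found) and promoters from RefSeq (GRCm38.p6). Identities of coding sequences were computed with Biopython 1.88. Protein sequences were not used here. Values per library were given for the member of each role group with the smallest p and the highest level, the 5 higher and 5 lower members with the smallest p, the paralogs, Cpt1a, Bdh1 and Pdk4; other members were given by range. Promoters were to be shown only for members past the study criteria; none passed, and the sequences shown depart from this. The members and lists were chosen with earlier results of these data known.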

Additional observations from a re-analysis of the deposited data

How the results depend on the processing

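No member had an adjusted p under 0.05 in any of the 13 alternatives, and the count at that threshold over all genes was 0 throughout (edgeR or DESeq2). Of the 37 members, 16 kept their sign in all alternatives (6 higher and 10 lower with insulin) and 21 changed it in at least 1. RLE scaling and DESeq2 changed no member's sign. Every member had at least 100 counts in each library. Precision was limited by the 3 mice per group and by the variance the fit assigned, which is moderated over genes and common to both groups. For Bdh1 the SE was 0.21, while the SD of log2 CPM was 0.057 with vehicle and 0.127 with insulin. The median log2 fold change of the members, −0.060, ran from −0.13 (GC offset) to 0.013 (without vehicle replicate 3). Over all genes tested the median in these settings was −0.061 (GC offset) and 0.024 (without vehicle replicate 3).

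The genes past the study criteria, 383 with all libraries, numbered 742 with no filter on low counts and 548 in DESeq2. Leaving out 1 library gave 99 to 1349: 1349 without vehicle replicate 1, 508 without vehicle replicate 2, 888 without vehicle replicate 3, and 99, 143 and 120 without insulin replicates 1, 2 and 3. The members past these criteria numbered 0 to 4, and the median of the members ran from −0.089 to 0.013 when a library was left out.

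Upper-quartile scaling gave positive log2 fold changes to Cpt2 (0.013), Crat (0.015), Acadm (0.026), Etfb (0.036) and Acox2 (0.037), and so did the fit with no filter (0.011, 0.014, 0.012, 0.031 and 0.030 in that order). The GC offset turned Acads to −0.34, Hadh to −0.064, Hadha to −0.081, Hadhb to 0.14, Eci1 to −0.18, Eci2 to 0.00029, Acaa1b to −0.13 and Bdh1 to −0.012. The cause of these changes of sign was not tested. With 1 library left out, the log2 fold change crossed 0 for Cpt2 (−0.27 to 0.14), Crat (−0.27 to 0.30), Acadm (−0.18 to 0.13), Acads (−0.18 to 0.37), Etfb (−0.15 to 0.30), Hadh (−0.050 to 0.15), Hadhb (−0.34 to 0.068), Eci2 (−0.14 to 0.092), Decr1 (−0.33 to 0.035), Acox2 (−0.11 to 0.11), Ehhadh (−0.38 to 0.054), Hsd17b4 (−0.28 to 0.16), Phyh (−0.31 to 0.060), Acot1 (−0.24 to 0.16), Acot3 (−0.77 to 0.48), Acot8 (−0.028 to 0.69) and Pdk4 (−1.05 to 0.61).

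The deviations of vehicle and insulin libraries with the same replicate number correlated at −0.039, 0.069 and 0.017, so the numbers were not taken as pairs. With the replicate block, 321 genes met the study criteria (203 higher and 118 lower, against 134 and 249 with neither block nor offset, 92 and 379 with the GC offset, and 133 and 201 with both), 17 members were higher and 20 lower, and Cpt2 (0.044), Crat (0.061), Etfb (0.043) and Acox2 (0.0085) changed sign. With the replicate block and the GC offset, Acadm was at 0.011, Acads at −0.34, Hadh at −0.044, Hadha at −0.072, Hadhb at 0.14, Eci1 at −0.12, Phyh at 0.037 and Bdh1 at −0.0096.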
